A study of Homo sapiens with 49 samples.

Results

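The human genome carries 4 alkaline phosphatase genes, and they are described here across a concentration series of the synthetic estrogen ethinyl estradiol (EE). The genes are ALPP (placental), ALPG (germ cell, also written ALPPL2), ALPI (intestinal) and ALPL (tissue-nonspecific). Every probe set whose gene symbols in the platform annotation were among these 4 was taken, dim ones included, which gave 8 of the 54613 probe sets that are not controls. Of the 8, 7 were annotated to 1 gene (2 to ALPG, 1 to ALPP, 2 to ALPI and 2 to ALPL) and 1 to both ALPG and ALPP.

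RNA came from Ishikawa cells, which come from an adenocarcinoma of the human endometrium, after 72 h with EE in 0.1% (v/v) ethanol or with ethanol alone (vehicle). There were 6 arrays each for vehicle, 0.1, 1, 3, 10, 100 and 1000 pM and 7 for 0.3 pM, so 49 arrays in 8 groups, all from the same line in the same medium. Nothing in the labels says that replicates came from different cultures, and the p-values therefore reflect just the spread among these arrays, which may be technical. The number of arrays limits the precision, and because RNA came from whole cultures, more cells expressing a gene and more RNA per cell cannot be told apart.

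Alkaline phosphatases are enzymes held on the outer face of the cell membrane by a glycosylphosphatidylinositol (GPI) anchor, where they release phosphate from many substrates with the help of zinc and magnesium ions. ALPP is known from the placental syncytiotrophoblast, ALPG from germ cells and their tumours, ALPI from the brush border of the intestine, and ALPL from bone, liver and kidney, where it breaks down pyrophosphate. Alkaline phosphatase activity that rises with estrogens is a long-used readout of Ishikawa cells for estrogenic compounds. The arrays read RNA and not enzyme activity.

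ALPP, ALPG and ALPI lie side by side on chromosome 2, at 232378751 to 232382889, 232406844 to 232410714 and 232456153 to 232460753, all on the forward strand, and ALPL lies on chromosome 1 at 21508984 to 21578410 (RefSeq genes, GRCh38.p14). The 150 bases upstream of the annotated start of the 3 clustered genes are shown for comparison. All 3 hold the same short motif. A probe set of ALPG and the probe set of ALPP passed tests against vehicle, and those of ALPI passed none. Whether the motif bears on this difference was not tested. Capitals mark GGTCA, the half-site of an estrogen response element, and each sequence ends at the base before the start site (forward strand, chr2:232378601-232378750 for ALPP, chr2:232406694-232406843 for ALPG and chr2:232456003-232456152 for ALPI).
ALPP: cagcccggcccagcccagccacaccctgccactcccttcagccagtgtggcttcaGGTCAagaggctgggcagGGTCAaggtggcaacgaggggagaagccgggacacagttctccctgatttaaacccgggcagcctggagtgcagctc
ALPG: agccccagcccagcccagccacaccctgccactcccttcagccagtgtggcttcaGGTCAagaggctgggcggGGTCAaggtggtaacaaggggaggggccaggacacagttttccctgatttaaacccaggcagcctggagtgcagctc
ALPI: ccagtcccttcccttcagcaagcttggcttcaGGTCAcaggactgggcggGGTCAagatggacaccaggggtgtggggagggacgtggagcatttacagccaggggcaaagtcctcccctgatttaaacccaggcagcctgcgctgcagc

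Motifs were searched on both strands of RefSeq promoter windows that run from 250 bases before to 50 after a start site. GGTCA occurred at −95 and −77 in both ALPP and ALPG and at −118 and −100 in ALPI, counted to the first base of the motif, and in none of the 3 windows of ALPL. Of all 35116 promoter windows 37.4% held GGTCA at least once and 9.28% held it 2 or more times, so 2 copies are not rare. The full palindrome GGTCANNNTGACC, which contains the half-site, was in 0.057% of windows and in none of those of the 4 genes. The AT-rich TTTAAA stood at −30 in ALPP and ALPG and at −28 in ALPI, against a share of 12.2% of all windows. The GC box GGGCGG (45% of windows) was found once each in ALPG and ALPI, directly before the second GGTCA and not overlapping it, and 4 times in 1 window of ALPL. Aligned over the whole windows, ALPP and ALPG were 82.7% identical, ALPP and ALPI 59.8%, and ALPG and ALPI 58.4%. A match is a description of letters and no evidence that a factor binds there.

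Levels are the deposited log2 expression values. Affymetrix names a probe set _at where its probes are meant to match 1 gene, _s_at where they match several transcripts or genes, and _x_at where some may bind unrelated sequences. A level of 4 serves as the floor, below which no fold is given. The array medians of the 23 nonspecific control probe sets ranged between 1.77 and 2.06, and 1 of these controls had a mean over 4. In 4 arrays (1000 pM replicate 6, 3 pM replicate 6, 0.3 pM replicate 2 and vehicle replicate 5) the beta-actin control read higher with its 3′ than with its 5′ probe set by 2.67 to 4.62, against 0.80 to 2.06 in the other 45, and results that depend on these arrays are given with and without them. Comparisons used limma over all 54613 probe sets with Benjamini-Hochberg adjustment, and a probe set is called where the adjusted p is under 0.05.

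ALPG, read by the _at probe set 210431_PM_at, was the alkaline phosphatase with the clearest signal: it exceeded the floor on 25 of 49 arrays. Of the other 7 probe sets the one shared by ALPG and ALPP exceeded it on 1 array and the remaining 6 on 0. At 1000 pM the 6 arrays read ALPG at 7.11, 7.02, 6.95, 6.72, 7.26 and 7.35. The vehicle arrays read 3.80, 3.83, 3.58, 3.47, 3.59 and 3.18. The groups were far apart, and every vehicle array lay under the floor. The means were 7.07 ± 0.23 at 1000 pM and 3.57 ± 0.24 in vehicle (SD, n = 6 each). The log2 change was 3.49 ± 0.12 (SE, limma adjusted p = 2.14e-27). Measured against the floor, ALPG was at least 8.38-fold higher.

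The level of ALPG climbed over a range of concentrations rather than in 1 step. At 0.1 pM the mean was 3.57 ± 0.27 (n = 6), at 0.3 pM 3.52 ± 0.21 (n = 7) and at 1 pM 3.77 ± 0.17 (n = 6), all overlapping the vehicle arrays. The limma adjusted p against vehicle was 1, 0.995 and 0.676 at these 3 concentrations. At 1 pM the log2 change was 0.19 with a 95% interval of −0.06 to 0.44, and 2 of the 6 arrays lay above every vehicle array.

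ALPG left the vehicle range at 3 pM, where the arrays read 4.56, 4.38, 4.74, 4.23, 4.19 and 4.50. All 6 exceeded the floor and every vehicle array. The log2 change was 0.86 ± 0.12 (SE, limma adjusted p = 0.00013), at least 1.35-fold, and with a spread estimated from the 3 pM and vehicle arrays alone it was no longer called (adjusted p = 0.238). At 10 pM the arrays read 5.42, 5.68, 5.34, 5.20, 5.56 and 5.42, and the change was 1.86 ± 0.12 (limma adjusted p = 3.54e-15), at least 2.71-fold. At 100 pM they read 6.77, 6.90, 6.71, 6.53, 7.08 and 6.65, and the change was 3.20 ± 0.12 (limma adjusted p = 1.2e-25), at least 6.84-fold. The groups from 3 pM upward shared no value with vehicle.

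Between consecutive concentrations, ALPG did not pass the test at 0.3 pM against 0.1 pM (−0.06, limma adjusted p = 1) or at 1 pM against 0.3 pM (0.25, 0.894). At 3 pM against 1 pM it was 0.67 higher with no shared value, and the limma adjusted p was 0.122. With the replicate number as a block it was 0.029 over all arrays and 0.265 in these 2 groups alone. It rose by 1.01 at 10 pM against 3 pM (limma adjusted p = 7.75e-06) and by 1.34 at 100 pM against 10 pM (limma adjusted p = 1.23e-10). At 1000 pM against 100 pM the arrays overlapped and the change was 0.29 with a 95% interval of 0.04 to 0.54 (limma adjusted p = 0.998, unadjusted 0.0221). Ordered by mean, the groups ran 0.3 pM, vehicle and 0.1 pM, 1 pM, 3 pM, 10 pM, 100 pM and 1000 pM, and the neighbours in that order that overlapped were those up to 1 pM and the last pair.

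Few probe sets on the array changed as much. Ranked by log2 change against vehicle, ALPG was 6th of 54613 probe sets at 3 pM, 4th at 10 pM, and 5th at both 100 and 1000 pM. The test over all 8 groups gave ALPG an adjusted p of 5.14e-33 (limma F test), and 1.96% of all probe sets passed that test. In 2 of the arrays with the large actin difference ALPG was the highest of its group, at 7.35 in 1000 pM replicate 6 and 3.75 in 0.3 pM replicate 2. In the 23 fits of this probe set, left-out arrays included, the change at 1000 pM stayed between 3.41 and 3.56.

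ALPP, the placental isozyme, was called higher at 100 and 1000 pM and at no lower concentration, with every value under the floor. Its probe set 204664_PM_at read 3.29, 3.55, 2.94, 3.30, 3.34 and 3.97 at 1000 pM. The arrays read 3.10, 2.92, 3.15, 2.98, 3.06 and 2.99 at 100 pM. In vehicle they read 2.25, 1.98, 2.20, 2.33, 2.49 and 2.59. At both concentrations every treated array lay above every vehicle array, yet none of the 49 arrays exceeded 4, so no fold is given. Whether RNA of ALPG adds to the signal of this probe set was not tested, since probe sequences were not used here. The same holds for RNA of ALPP and the _at probe set of ALPG. The _at probe set of ALPG averaged 6.77 at 100 pM and 7.07 at 1000 pM, where ALPP was called, and 5.44 at 10 pM, where it was not.

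The mean of ALPP was 3.40 ± 0.34 at 1000 pM and 2.31 ± 0.22 in vehicle (SD, n = 6 each), a difference in log2 level of 1.09 ± 0.12 (SE, limma adjusted p = 9.54e-10). At 100 pM the mean was 3.03 ± 0.08 and the difference 0.73 ± 0.12 (limma adjusted p = 2.71e-05). The highest 1000 pM value, 3.97, was that of the array with the large actin difference; leaving out single arrays kept the difference between 0.98 and 1.18, called each time. At 10 pM, where ALPG was already 1.86 higher, ALPP had a mean of 2.45 ± 0.11 and a difference of 0.15 with a 95% interval of −0.09 to 0.38 (limma adjusted p = 0.705). The only consecutive pair that ALPP passed was 100 pM against 10 pM, at 0.58 (limma adjusted p = 0.00596). At 1000 pM against 100 pM the change was 0.36 with a 95% interval of 0.13 to 0.60 (limma adjusted p = 0.998).

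A called rise was uncommon among probe sets that, like ALPP, stayed at or under the floor on every array. There were 30197 such probe sets, and 70 of them, 0.232%, were called higher at 1000 pM. The treated arrays were part of this selection, so dim probe sets that rose past the floor were left out. The share therefore does not tell how often a probe set as dim as ALPP in vehicle is called higher.

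The _s_at probe set 211619_PM_s_at, annotated to both ALPG and ALPP, was called higher at 100 and 1000 pM, as ALPP was. At 3 and 10 pM, where the _at probe set of ALPG was called, the shared one was not. Its differences from vehicle there were 0.19 and 0.27 (limma adjusted p = 0.948 and 0.618). It read 3.62, 3.36, 3.42, 3.44, 3.83 and 3.04 at 1000 pM, against 2.35, 2.30, 2.46, 2.21, 2.71 and 2.49 in vehicle, with no overlap. The means were 3.45 ± 0.26 at 1000 pM and 2.42 ± 0.18 in vehicle (SD, n = 6 each), a difference of 1.03 ± 0.15 (limma adjusted p = 2.02e-06). At 100 pM the arrays spread more widely, between 2.83 and 4.05, and the difference was 0.85 ± 0.15 (limma adjusted p = 0.00013). Its signal cannot be divided between the 2 genes. For 100 pM against 10 pM the difference was 0.58 with an adjusted p of 0.0881, 0.062 with the replicate block over all arrays, 0.0236 with the block in these 2 groups and 0.0331 without the 4 arrays.

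The other probe set of ALPG, 216377_PM_x_at, was called at no concentration. It read 3.53, 2.95, 3.48, 3.39, 2.92 and 2.76 at 1000 pM and 2.85, 2.46, 2.71, 3.12, 2.88 and 3.07 in vehicle, so the groups overlapped. The difference in mean log2 level was 0.32 with a 95% interval of 0.04 to 0.61 (limma adjusted p = 0.379). At 3 pM its mean was 2.50, against 2.85 in vehicle, a difference of −0.35 (limma adjusted p = 0.948) at the concentration where the _at probe set was 0.86 higher. It did pass the test over all groups (limma F test, adjusted p = 0.0118). With the levels of both probe sets averaged, ALPG was called at 10 pM (0.90), 100 pM (1.68) and 1000 pM (1.91) and not at 3 pM (0.25, limma adjusted p = 0.913).

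ALPI, the intestinal isozyme, was called at no concentration by either of its probe sets. The _at probe set 207140_PM_at averaged 2.35 ± 0.23 at 1000 pM and 2.17 ± 0.11 in vehicle, a difference of 0.18 with a 95% interval of −0.01 to 0.36 (limma adjusted p = 0.548). The _s_at probe set 211618_PM_s_at averaged 2.40 ± 0.17 at 1000 pM and 2.30 ± 0.19 in vehicle (0.10, 95% interval −0.09 to 0.30). Its largest difference was at 10 pM, 0.29 (limma adjusted p = 0.395). All ALPI values lay between 1.76 and 2.85.

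ALPL, the tissue-nonspecific isozyme, was likewise called at no concentration. Its probe set 1557924_PM_s_at averaged 2.04 ± 0.09 at 1000 pM and 2.08 ± 0.24 in vehicle, a difference of −0.04 with a 95% interval of −0.23 to 0.16. Its probe set 215783_PM_s_at averaged 1.91 ± 0.12 at 1000 pM and 2.06 ± 0.15 in vehicle, a difference of −0.15 with a 95% interval of −0.33 to 0.03. Over the 28 tests of ALPI and ALPL probe sets against vehicle, limma called 0, and 2 had an unadjusted p under 0.05. The levels of ALPI and ALPL lay near those of the nonspecific controls (array medians of 1.77 to 2.06), and the intervals above bound the changes that these arrays leave possible in the deposited levels. ALPP had a similar mean in vehicle, 2.31, and was called.

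Counted over the members, 3 of 8 probe sets were called higher at 1000 pM and 3 of 8 at 100 pM (ALPG _at, ALPP and the shared one), where 0.921% and 0.886% of all probe sets were called higher. At 10 pM and at 3 pM it was 1 of 8 (ALPG _at), where 0.123% and 0.033% of all probe sets were called higher. At 0.1, 0.3 and 1 pM limma called 0 of 8, with 0 of 8 at an unadjusted p under 0.05, and 0 of all probe sets were called (2354, 1766 and 3805 at an unadjusted p under 0.05). Groups without overlap were seen for the same 3 probe sets at 100 and 1000 pM, against 0.837% and 0.65% of all probe sets with every treated array above every vehicle array. At 10 and 3 pM this held for ALPG _at alone among the 8, against 0.198% and 0.0586% of all probe sets. Against the next lower concentration, limma called 1 of 8 at 10 pM (0.022% of all probe sets higher) and 2 of 8 at 100 pM (0.207%, ALPG _at and ALPP). At 1000 pM against 100 pM limma called 0 of 8, with 2 of 8 at an unadjusted p under 0.05, and 0.00183% of all probe sets were called higher.

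A curve with a Hill slope of 1 was fitted to the log2 levels to give the midpoint concentration, at which the log2 change reaches its middle. For ALPG, read here and below by its _at probe set, it was 8.71 pM with a 95% interval of 7.24 to 10.5 pM. The R2 of that fit was 0.98. For ALPP it was 60.3 pM with an interval of 28.8 to 120 pM. Without the 4 arrays with the large actin difference ALPP had a midpoint of 45.7 pM (22.9 to 91.2 pM). With a free slope its interval widened to 27.5 to 363 pM. The shared probe set lay between ALPG and ALPP, at 31.6 pM (11 to 91.2 pM). The _x_at probe set of ALPG, under the floor throughout, had a midpoint of 72.4 pM (11 to 832 pM) with an R2 of 0.34. Its interval lay above that of the _at probe set and overlapped that of ALPP. The intervals of the ALPG _at probe set and of ALPP did not overlap, and the difference itself was not tested. Whether it is one of genes or of bright and dim probe sets was not tested either. ALPP was read under the floor throughout, and the fitted bottom of ALPG, 3.48, lay under the floor too. Placed on its own fitted curve, with the fitted bottom as 0% and the fitted top as 100% of the log2 change, ALPG stood at 7.89 ± 4.63% at 1 pM, 26.4 ± 5.79% at 3 pM, 54.3 ± 4.6% at 10 pM, 91.3 ± 5.34% at 100 pM and 99.5 ± 6.29% at 1000 pM (SD, n = 6 each). ALPP stood at 9.53 ± 14.6% at 1 pM, 3.1 ± 17.6% at 3 pM, 12.8 ± 9.18% at 10 pM, 62.9 ± 7.2% at 100 pM and 94.2 ± 29.4% at 1000 pM. ALPG was thus past the middle of its fitted change at 10 pM, where ALPP was near the bottom of its own, and the wide spread of ALPP at 1000 pM leaves its top loosely fixed.

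On linear values the midpoint of ALPG moved to 30.2 pM (22.9 to 39.8 pM) and that of ALPP to 100 pM (45.7 to 209 pM). By its _at probe set ALPG stayed the lower of the pair on both scales. The values of 2 other estrogen targets give reference points. PGR, the progesterone receptor, had a midpoint of 7.24 pM (6.03 to 9.12 pM) and averaged 9.15 at 1000 pM against 4.02 in vehicle. GREB1, an estrogen receptor cofactor, had one of 12.6 pM (10 to 15.8 pM) and averaged 7.75 at 1000 pM against 5.12 in vehicle. On linear values the order of these 3 turned round. GREB1 stood at 26.3 pM (21.9 to 31.6 pM), ALPG at 30.2 pM and PGR at 38 pM (31.6 to 43.7 pM). ALPG lay between PGR and GREB1 on both scales, and which of those had the lower midpoint depended on the scale. On each scale the interval of ALPG overlapped those of PGR and GREB1. ESR1, the estrogen receptor alpha, averaged 8.29 at 1000 pM and 8.24 in vehicle (limma adjusted p = 0.858).

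Of the 503 probe sets called higher at 1000 pM, the midpoints had a median of 15.8 pM and quartiles of 8.71 and 31.6 pM. ALPG lay at the lower quartile: 124 probe sets had a lower midpoint and 371 a higher one. Among the 215 with an interval less than 10-fold wide, 42 lay below ALPG and 168 above it. The midpoint of ALPP was toward the high end, with 439 of the 503 below it and 63 above. This is a description, since many of the 503 midpoints are loosely fixed.

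The genes whose group means followed those of ALPG most closely were sought among the 145 probe sets of 1 gene that exceeded the floor on at least 6 arrays and spanned at least 1 log2 unit. By Pearson correlation over the 8 group means the closest 8 included CAPS, EPB41L2, PGR, CA12, NRTN, PEG10 and HES2, and the 8 coefficients lay between 0.998 and 0.999. CAPS, the calcium-binding calcyphosine, averaged 9.94 at 1000 pM and 8.28 in vehicle, with a midpoint of 8.71 pM. CA12, a membrane-bound carbonic anhydrase, averaged 7.25 at 1000 pM and 6.21 in vehicle. All coefficients rest on the same 8 groups and the same arrays, and by Spearman correlation 2 of these 8 genes were among the closest.

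The 8 nearest protein-coding genes on each side of the ALPP, ALPG and ALPI cluster were read next. Of these 16, 15 had a probe set, and each was read by its brightest one. Of the 15, 4 were called higher at 1000 pM and 0 lower, where 0.921% of all probe sets, dim ones included, were called higher. That share also counts probe sets without a gene and those that are not the brightest of their gene. It is therefore not like for like with a count of genes. The 4 were NPPC, DIS3L2, ECEL1 and TIGD1, and without the 4 arrays with the large actin difference 3 of them were called. A gene is termed measured where its brightest probe set exceeded the floor on at least 6 arrays, which held for 10 of the 15. NPPC met this through its 100 and 1000 pM arrays alone. ECEL1 exceeded the floor on 7 arrays and needed those at 1000 pM to be termed measured. For this reason no count is read from the 10. Over all 11075 measured genes 2.13% were called higher at 1000 pM. The 5 neighbours under the floor were not called by limma, with 2 at an unadjusted p under 0.05.

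NPPC encodes C-type natriuretic peptide and lies 452 kb before the cluster. It read 5.52, 5.63, 5.48, 5.23, 5.02 and 4.34 at 1000 pM, against 2.42, 2.50, 2.20, 2.30, 1.75 and 1.91 in vehicle. No value was shared, and the log2 change of 3.02 ± 0.18 (limma adjusted p = 1.68e-18) is at least 2.3-fold against the floor. It was already called at 10 pM (limma adjusted p = 1.71e-05), and its midpoint of 13.8 pM (10 to 19.1 pM) was above that of ALPG with intervals that overlapped.

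DIS3L2, an exoribonuclease, is the direct neighbour before ALPP at 34 kb. It read 6.45, 6.18, 6.27, 6.59, 6.73 and 6.73 at 1000 pM, against 5.00, 4.87, 5.00, 4.76, 5.66 and 4.68 in vehicle. The groups did not overlap, and DIS3L2 was 2.83-fold higher (log2 change 1.50 ± 0.13, limma adjusted p = 6e-13). The highest vehicle array, 5.66, was the one with the large actin difference, and without the 4 arrays the change was 1.59. Of its 4 probe sets 3 were called higher and 1, which stayed under the floor, was not. Its midpoint was 15.8 pM (10 to 25.1 pM).

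ECEL1, an endothelin-converting enzyme-like protease 19 kb after ALPI, averaged 4.12 ± 0.43 at 1000 pM and 3.46 ± 0.37 in vehicle, with overlap (0.66, limma adjusted p = 0.0169). TIGD1, a transposase-derived gene at 83 kb, averaged 5.59 ± 0.28 at 1000 pM and 5.26 ± 0.12 in vehicle (0.33, limma adjusted p = 0.0441), and without the 4 arrays it was no longer called (0.20, adjusted p = 0.361). The other 6 measured neighbours, NCL, PTMA, PDE6D, COPS7B, EIF4E2 and GIGYF2, were not called, with changes between −0.11 and 0.21. ALPI, which lies between ALPG and ECEL1, was not called, but its levels lay near those of the nonspecific controls. Whether the genes of this stretch of chromosome 2 changed as a unit was not tested. Around ALPL on chromosome 1, 10 of 16 neighbours were measured, with 3 at an unadjusted limma p under 0.05. Over all measured genes 2.13% were called higher and 2.79% lower at 1000 pM. Of the 10, 0 were called higher and 2 lower. These were RAP1GAP, a GTPase activator of RAP1 (−0.73, limma adjusted p = 0.000317), and HSPG2, the basement membrane proteoglycan perlecan (−0.60, limma adjusted p = 0.0257).

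An alkaline phosphatase needs a GPI anchor, zinc and an export route, so genes of these steps were read at 1000 pM against vehicle. Of 27 measured genes that build and attach the GPI anchor limma called 0, with 5 at an unadjusted p under 0.05, and the list's median log2 change was 0.03, against −0.01 over all measured genes. DPM1, which makes the mannose donor of the anchor as catalytic subunit of dolichol-phosphate mannose synthase, averaged 10.18 at 1000 pM and 10.10 in vehicle. PIGY, a subunit of the enzyme that starts the anchor, averaged 10.10 at 1000 pM and 9.99 in vehicle. PIGK, the catalytic subunit of the transamidase that joins anchor and protein, averaged 8.29 at 1000 pM and 8.41 in vehicle. Over all 11075 measured genes 2.13% were called higher and 2.79% lower at 1000 pM. These shares and the median of −0.01 are the background for the lists below too. Of all 54613 probe sets 5442 had an unadjusted limma p under 0.05 at 1000 pM.

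Of 20 measured genes for other GPI-anchored proteins 2 were called higher and 2 lower, with a median log2 change of −0.13. An unadjusted limma p under 0.05 was found for 11 of the 20. Over all measured genes the shares were 2.13% higher and 2.79% lower, with a median of −0.01. The glypicans GPC6 (0.41, limma adjusted p = 0.0365) and GPC4 (0.26, 0.0319) were higher, and GPC4 was no longer called without the 4 arrays (0.23, 0.058). NTNG1, a netrin-like guidance protein, was lower, at 4.16 at 1000 pM and 5.17 in vehicle (limma adjusted p = 1.16e-07), and so was the ephrin EFNA1 (−0.32, 0.0135). CD59, the complement inhibitor, averaged 9.00 at 1000 pM and 9.06 in vehicle.

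Of 8 measured zinc transporters, not all of them of the secretory pathway, 1 was called higher and 1 lower, with a median of 0.04. An unadjusted limma p under 0.05 was found for 3 of the 8. SLC30A1, which exports zinc from the cell, averaged 9.08 at 1000 pM and 8.36 in vehicle (0.72, limma adjusted p = 0.000378). SLC39A7, which releases zinc from the endoplasmic reticulum, averaged 8.03 at 1000 pM and 8.28 in vehicle (−0.25, limma adjusted p = 0.0448). SLC39A9, the brightest that was not called, averaged 9.58 at 1000 pM and 9.54 in vehicle. SLC30A5, a transporter that supplies zinc to alkaline phosphatases, averaged 9.16 at 1000 pM and 9.03 in vehicle and was not called.

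Among 14 measured genes of phosphate and pyrophosphate handling 1 was called higher and 0 lower, with a median of 0.06. An unadjusted limma p under 0.05 was found for 4 of the 14. The called gene was the phosphate exporter XPR1 (0.29, limma adjusted p = 0.000193). PPA1, a cytosolic pyrophosphatase, averaged 11.51 at 1000 pM and 11.41 in vehicle and was not called. ENPP1, which makes pyrophosphate from nucleotides, averaged 7.48 at 1000 pM and 7.53 in vehicle, and ANKH, which exports it or its precursor, averaged 8.32 at 1000 pM and 8.20 in vehicle. Of 4 measured acid phosphatases 1 was called lower, PXYLP1, which removes phosphate from xylose in proteoglycans (−0.32, limma adjusted p = 0.000288), and ACP1 averaged 9.84 at 1000 pM and 9.87 in vehicle. The 1 measured gene of vitamin B6 metabolism, PLPBP, was not called (0.16).

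Markers of the tissues in which these isozymes are known were mostly dim. Of 8 trophoblast markers with a probe set 7 stayed under the floor, limma called 0, and 0 had an unadjusted p under 0.05. Their mean level per array lay between 2.96 and 3.15 at 1000 pM and between 2.89 and 3.20 in vehicle. HLA-G, the measured one, averaged 6.33 at 1000 pM and 6.30 in vehicle. All 4 enterocyte markers stayed under the floor (array means of 2.13 to 2.38 at 1000 pM and 2.23 to 2.49 in vehicle), and of 4 osteoblast markers 1 was measured, BGLAP, which was not called (−0.16).

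All 9 endometrial epithelial markers were measured, with 4 at an unadjusted limma p under 0.05. KRT18 averaged 11.63 at 1000 pM and 11.69 in vehicle, and EPCAM averaged 11.43 at 1000 pM and 11.36 in vehicle. SOX17, a Mullerian transcription factor, was the 1 called higher (0.72, limma adjusted p = 1.58e-10). Of 3 measured stromal markers COL1A2 was higher (1.07, limma adjusted p = 2.31e-07) and COL1A1 lower (−0.66, limma adjusted p = 0.00518). All 3 had an unadjusted limma p under 0.05. None of the 4 endothelial and 4 immune cell markers with a probe set exceeded the floor on 6 arrays.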

How the data were processed

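Per the labels' protocols, labelled RNA of each sample went on 1 Affymetrix array (HT HG-U133 Plus PM). The deposited values are log2 expression levels per probe set and array; per the submitters' processing notes GCRMA and Partek were used, without a version, so the authors had corrected, normalized and summarized the signals. The log base was taken from the range of the values. Genes come from the platform annotation, matched by Entrez identifier to RefSeq of GRCh38.p14, and sequences are RefSeq's. All 3 clustered genes and ALPL matched.

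Group means of all 49 arrays were fitted with limma 3.58.1 (R 4.3.3) with an intensity trend and no filter, with Benjamini-Hochberg adjustment over 54613 probe sets within each contrast (threshold 0.05); no sample was dropped or imputed. A gene on a list was read by its probe set with the highest mean and counted as measured when that exceeded log2 4 on at least 6 arrays. Curves of Hill slope 1 used a grid of log10 molar midpoints between −14 and −8, with 95% intervals from the F distribution of residual sums of squares (Python 3.11.15, SciPy 1.17.1, pandas 2.3.3). Both calculations were tested on simulated data.

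The members and the 13 lists (152 genes) were chosen with earlier results of these data known. Named are all members, ESR1, PGR and GREB1, per list up to 3 called genes in each direction and up to 3 of the brightest uncalled ones, measured neighbours and the 8 genes most like ALPG, of which the top-ranked is not reported here; PIGK, ENPP1 and ANKH were added after their values were seen. Replicate numbers paired the arrays, by every one of 6 correlations of deviations from the group means being over 0.1, in 3 pM against 1 pM (lowest 0.131), 10 pM against 3 pM (0.168) and 100 pM against 10 pM (0.295). Against vehicle they never did, and the labels name no batch. Alternatives changed the filter, variance prior, normalization, weights, arrays, threshold, floor, scale and block; a block fitted in only the 2 groups compared, and the neighbours without the 4 arrays or with the block, were added after the data were seen.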

Additional observations from a re-analysis of the deposited data

Results flagged for a closer look

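Of 64 groups of arrays (8 probe sets in 8 groups), 5 held an array far from the others by Dixon's criterion, which chance alone gives in about 5% of groups. In the ALPG _x_at probe set, 100 pM replicate 5 read 3.49, with the next array at 3.01. ALPP read 1.81 in 0.1 pM replicate 1, below the next at 2.32, and 1.96 in 0.3 pM replicate 5, below the next at 2.25. The first ALPL probe set (1557924_PM_s_at) read 2.55 in vehicle replicate 5, one of the 4 arrays with a large actin difference, above the next at 2.04. The second ALPL probe set (215783_PM_s_at) read 2.55 in 0.3 pM replicate 4, above the next at 2.01. All 5 values lie under the floor of 4, and none belongs to a group with a called change.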

How the results depend on the processing

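With only the 2 groups compared in the fit, ALPG at 3 pM against vehicle kept its change of 0.86 with an adjusted p of 0.238, so 0 members were called there, and over all probe sets this fit called 0, 29, 317 and 373 at 3, 10, 100 and 1000 pM, against 18, 101, 1066 and 1022. With the probe sets of a gene averaged, 0 genes were called at 3 pM. With the replicate block, ALPG at 3 pM against 1 pM was called (0.67, adjusted p = 0.029), but not in a block of these 2 groups (0.265); for the phosphate list the block called 2 genes higher (PPA2, 0.0411). The filter on dim probe sets left 1 called member at 100 pM and 1 at 1000 pM, and 0 probe sets for 1000 pM against 100 pM. Linear values moved the midpoint of ALPG to 30.2 pM. Without the 4 arrays 1 other GPI-anchored gene was higher and 2 stromal genes were lower. A floor of 3 gave ALPG folds of 1.81, 3.64, 9.18 and 11.3 at 3, 10, 100 and 1000 pM, and a floor of 5 gave at least 1.35, 3.42 and 4.19 at 10, 100 and 1000 pM. For 10 pM against vehicle the actin covariate called 162 probe sets, and for 100 pM against 10 pM array weights, the 4 arrays left out and the actin covariate called 237, 305 and 277, against 138. The causes were not tested. No called change or step of a member changed sign, though uncalled differences near 0 did (ALPP at 3 pM against vehicle, 0.03, reached −0.04 with an array left out), and linear values turned round the order of the midpoints of PGR, ALPG and GREB1. Counting list genes under the floor too changed no list's count. Leaving out single arrays kept every called change of a member against vehicle.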
